A study of Mus musculus with 70 samples.

Results

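Acute phase proteins are plasma and tissue proteins whose synthesis changes when the body meets infection, injury or inflammation. The genes of 10 of them (Saa1, Saa2, Saa3, Lcn2, Orm1, Orm2, Hp, Itih3, Serpina3n and Fgg) were followed through 70 RNA-seq libraries of mouse liver and of macrophages sorted from liver. They were taken by their gene symbols. Each of the 10 was found in all 3 deposited count tables, which hold 25089 symbols between them.

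As background, hepatocytes make most of these proteins. Interleukin 6 and interleukin 1, released by Kupffer cells and other immune cells, act on hepatocytes through STAT3, C/EBP factors and NF-kB and raise the transcription of acute phase genes. Saa1 and Saa2 encode serum amyloid A proteins carried on high-density lipoprotein, and Saa3 encodes a relative made also by macrophages and fat cells. Lcn2 encodes lipocalin 2, which binds bacterial iron carriers and is stored by neutrophils as well. Orm1 and Orm2 encode orosomucoids, plasma carriers of drugs and lipids. Hp encodes haptoglobin, which binds free haemoglobin. Itih3 encodes a heavy chain of the inter-alpha-trypsin inhibitor family, Serpina3n a secreted serine protease inhibitor, and Fgg the gamma chain of fibrinogen, the clotting protein.

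The design crossed genotype with diet in each sex. KI stands for the genotype labelled OpnKI Mye, by its name an osteopontin knock-in in myeloid cells (Spp1 is the osteopontin gene). The labels do not say whether KI mice carry a Cre. WT stands for the genotype labelled Lyz2.Cre+/+, which carries the Cre recombinase of the Lyz2 gene on both alleles. A genotype difference may therefore include a difference in Cre, and the knock-in and the Cre cannot be told apart. Lyz2 is active in macrophages, monocytes and neutrophils, so neither the Cre nor anything it switches on is limited to liver macrophages. The NASH (nonalcoholic steatohepatitis) groups and the control diet groups were taken at 24 weeks. Neither the age of the mice nor the make-up of the diets is stated in the labels. Total liver gave 4 libraries each of KI NASH, KI control, WT NASH and WT control in males and again in females. The resident macrophages of the liver, gated as F4/80high and CD11blow, gave 5 KI NASH, 4 KI control, 5 WT NASH and 4 WT control libraries in males. In females they gave 6 KI NASH, 4 KI control, 6 WT NASH and 4 WT control libraries. Nothing in the labels says that each library is a separate mouse, so p-values measure the spread between these libraries, which may be partly technical.

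The libraries held 11245097 to 29966174 counts each. In male liver, WT control replicates 3 and 4 differed by less than sampling noise at genes with 20 to 200 counts in the pair together. The mean chi-square per gene there was 0.0671, while the remaining 121 pairs gave 2.05 to 11.9. Replicates 3 and 4 were averaged and counted as 1 library, which left 3 WT control male livers. Abundant genes were left out of that check, and there the 2 versions differed. Alb, a hepatocyte marker, stood at 20440 and 149000 CPM (counts scaled to the TMM library size). Hp stood at 1858 and 3670 CPM and Fgg at 2525 and 4548 CPM, while Saa1 stood at 19.5 and 20.4 CPM. Sex-linked genes went against the label in this library and in male macrophage WT control 4. Spp1, the gene of the knock-in, was at 7.10 to 11.5 CPM in KI control and 0.277 to 0.550 CPM in WT control male macrophages. In female macrophages it was at 1.43 to 2.36 CPM in KI control and 0 to 0.193 CPM in WT control. The summed CPM of Kupffer cell and macrophage markers was 19960 to 48860 in the sorted cells and 331 to 1011 in liver. In these bulk samples, fewer cells of a type and less RNA per cell cannot be told apart.

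The 250 bases before the start of Saa1, Saa2, Saa3, Lcn2 and Serpina3n are shown. Saa1, Saa2 and Lcn2 varied most between libraries, and Saa3 is set beside the other serum amyloid A genes. Serpina3n passed the test between genotypes in liver on the NASH diet in males and on the control diet in females. They were read from RefSeq promoters on GRCm38.p6, 5′ to 3′ on the strand of the gene. Capitals mark matches to TTNNGNAA on either strand, the core of a C/EBP element. Saa1 lies at chr7:46742981-46743230 (minus strand), Saa2 at chr7:46751583-46751832 (plus), Saa3 at chr7:46715677-46715926 (minus), Lcn2 at chr2:32387740-32387989 (minus) and Serpina3n at chr12:104406458-104406707 (plus).
Saa1: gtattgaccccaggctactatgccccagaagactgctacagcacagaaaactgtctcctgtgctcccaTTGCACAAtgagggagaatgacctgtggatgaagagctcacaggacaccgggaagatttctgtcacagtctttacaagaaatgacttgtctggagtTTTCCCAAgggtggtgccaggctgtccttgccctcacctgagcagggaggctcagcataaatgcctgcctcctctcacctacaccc
Saa2: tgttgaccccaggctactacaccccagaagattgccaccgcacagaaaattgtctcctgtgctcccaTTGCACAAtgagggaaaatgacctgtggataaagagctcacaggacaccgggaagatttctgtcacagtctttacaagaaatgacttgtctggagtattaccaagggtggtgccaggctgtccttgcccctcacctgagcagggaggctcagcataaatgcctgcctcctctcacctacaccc
Saa3: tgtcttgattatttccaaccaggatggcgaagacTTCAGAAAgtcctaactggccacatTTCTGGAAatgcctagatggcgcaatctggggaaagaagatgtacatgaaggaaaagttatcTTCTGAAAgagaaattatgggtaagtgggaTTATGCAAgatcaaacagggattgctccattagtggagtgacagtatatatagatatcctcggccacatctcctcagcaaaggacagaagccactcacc
Lcn2: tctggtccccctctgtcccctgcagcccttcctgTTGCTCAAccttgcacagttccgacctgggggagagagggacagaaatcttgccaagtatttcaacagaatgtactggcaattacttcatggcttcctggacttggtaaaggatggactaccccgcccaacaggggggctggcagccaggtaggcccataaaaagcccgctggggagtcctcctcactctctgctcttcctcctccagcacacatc
Serpina3n: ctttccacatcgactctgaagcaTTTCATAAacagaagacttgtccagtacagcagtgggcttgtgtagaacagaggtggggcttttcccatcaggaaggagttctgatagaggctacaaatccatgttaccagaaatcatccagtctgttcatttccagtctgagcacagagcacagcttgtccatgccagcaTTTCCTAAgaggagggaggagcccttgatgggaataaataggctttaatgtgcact
Saa1 and Saa2 stand head to head on chromosome 7, and their sequences above were 94.8% identical, against 47.1% between Saa1 and Saa3. Of the 10 genes, 8 had a promoter entry (Hp and Orm1 had none). The C/EBP core was present in 6 of these 8, against 36.8% of 32851 promoters of the same length. In Saa1 the matches lay 182 to 175 and 86 to 79 bases before the start, and in Saa2 1 match lay 183 to 176 bases before it. In Saa3 4 matches lay between 216 and 92 bases before the start. The STAT element TTCNNNGAA was found in 0 of the 8, against 7.02% of all promoters, and an NF-kB element in 0 of the 8, against 7.25%. A match describes these letters and is not a measured binding site.

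Levels between genes were compared as CPM per kilobase of the longest protein-coding transcript. In WT control males the order was Fgg with a mean of 2520, Hp 2170, Orm1 1140, Itih3 340.4, Serpina3n 282, Saa1 59.5, Saa2 21.6, Orm2 11.8, Lcn2 8.26 and Saa3 1.3 CPM per kilobase. WT control females gave the same order, with Fgg at 2020 and Hp at 1330 CPM per kilobase at the upper end, Saa1 in the middle at 69.3 and Saa3 at 1.02 at the lower end. The transcripts of Saa1 and Saa2 were 87.3% identical and those of Orm1 and Orm2 91.0%, so reads may have been split between the members of each pair and their separate values are uncertain.

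The 10 genes differed most in how far libraries of one group stood apart. The pooled within-group SD of log2 CPM in male liver was 2.18 for Saa2, 1.77 for Lcn2 and 1.65 for Saa1, against a median of 0.258 over all genes tested. Only 0.154%, 0.431% and 0.554% of genes were more variable than Saa2, Lcn2 and Saa1 in male liver. In female liver the SD was 2.04 for Saa2, 1.91 for Saa1 and 1.55 for Lcn2, against a median of 0.261. At the other end, Fgg had an SD of 0.299 in males and 0.369 in females, and 42% and 30% of genes were more variable. Within a single group the highest library was 1.47 to 177 times the lowest for Saa2 in males and 3.23 to 84.4 times in females. The same ratio for Fgg was 1.41 to 1.79 in males and 1.10 to 2.42 in females.

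**Figure D1:**
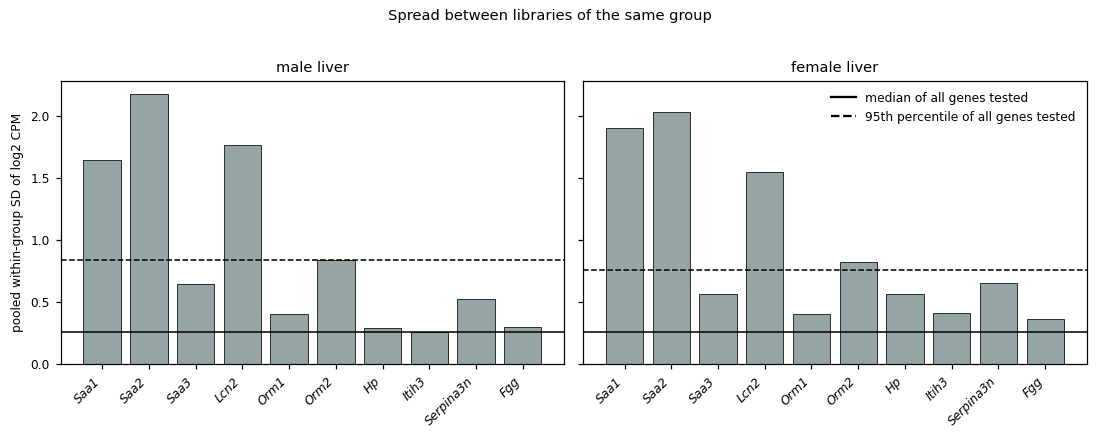
Pooled within-group SD of log2 CPM (axis, log2 units) for each of the 10 genes in male and female liver, with the median over all genes tested as a solid line and their 95th percentile as a dashed line. Saa2, Saa1 and Lcn2 lie at 1.55 to 2.18, and Fgg lies at 0.299 in males and 0.369 in females.

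One library could lead nearly all of the genes at once. Male KI control 1 was the highest of its group for 10 of 10 genes, and female KI control 1 for 8 of 10. In male KI NASH livers, replicate 4 was the lowest for 9 genes and replicate 2 the highest for 7. In female WT NASH livers, replicate 4 was the highest for 7 genes, replicate 3 for the other 3, and replicate 1 the lowest for 8.

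In male liver of WT mice, the NASH diet separated the genes into groups that differed in direction. Lcn2, Orm2 and Hp rose and Itih3 and Fgg fell, so 5 of 10 genes passed an adjusted p of 0.05 in edgeR's quasi-likelihood test, where 21% of the 12988 genes tested passed (11.3% higher and 9.74% lower). The median log2 fold change was 0.68 over the 10 genes and -0.01 over all genes tested. Orm2 was at 164, 101, 58.0 and 89.3 CPM in WT NASH and at 9.62, 7.28 and 10.6 CPM in WT control livers. All 4 WT NASH values were more than 5 times the highest WT control value, and the log2 fold change was 3.49 (SE 0.64, adjusted p = 0.0032). Lcn2 was at 397, 77.1, 79.2 and 73.6 CPM in WT NASH and 3.69, 4.41 and 14.6 CPM in WT control livers. The groups did not overlap, and WT NASH 1 stood far above the other 3. The log2 fold change of Lcn2 was 4.37 (SE 1.37, adjusted p = 0.037), and it was 3.31 without WT NASH 1. It did not pass without that library (adjusted p = 0.093), without WT control 1 (0.12) or without WT control 2 (0.13). Hp was at 5720, 3766, 4585 and 4931 CPM in WT NASH and 3155, 2772 and 2811 CPM in WT control livers, with no overlap and a log2 fold change of 0.71 (SE 0.23, adjusted p = 0.043). The call for Hp was lost in 11 of the 15 fits that left out 1 library, with an adjusted p of up to 0.14 without WT control 2. It was kept without WT NASH 2, KI control 1, KI NASH 2 or KI NASH 4. With version 4 in place of the averaged WT control library it was lost too (log2 fold change 0.54, adjusted p = 0.0996). The same held without the low-count filter (adjusted p = 0.059). Without the averaged WT control library, 4 of 10 genes passed, with Hp at an adjusted p of 0.075 and log2 fold changes of 5.26 for Lcn2, 3.61 for Orm2, -0.84 for Itih3 and -1.06 for Fgg.

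The genes that fell did so in every WT NASH library. Itih3 was at 545, 393, 520 and 659 CPM in WT NASH and 1061, 824 and 1166 CPM in WT control livers, a log2 fold change of -0.94 (SE 0.19, adjusted p = 0.0054). Fgg was at 2405, 2613, 1849 and 2315 CPM in WT NASH and 4275, 5281 and 3586 CPM in WT control livers, a log2 fold change of -0.93 (SE 0.23, adjusted p = 0.012). Neither gene's groups overlapped in CPM, and the call for Fgg was lost without WT control 2, with an adjusted p of 0.065. Saa1 was at 188, 208, 153 and 265 CPM in WT NASH and 53.1, 35.9 and 19.8 CPM in WT control livers. These groups did not overlap either, but the log2 fold change of 2.49 (SE 1.2) had an adjusted p of 0.15. Saa2, at 98.1 to 144 CPM in WT NASH and 11.2 to 19.7 CPM in WT control livers, had a log2 fold change of 3.14 (SE 1.54, adjusted p = 0.16). The spread behind both tests is shared with the KI groups, and without KI control 1 the adjusted p was 0.014 for Saa1 and 0.017 for Saa2. Saa3 was at 3.93, 4.97, 3.51 and 5.46 CPM in WT NASH and 3.37, 2.12 and 3.11 CPM in WT control livers, and its adjusted p was 0.35. Hepatocyte markers moved with this comparison: 1 of 17 tested was higher and 8 were lower, with a summed level of 107100 to 115200 CPM in WT NASH and 145500 to 225300 CPM in WT control livers. The lowest WT control sum was that of the averaged library, so it depends on how its 2 versions were merged. Alb, a member of this marker list, stood at 20440 and 149000 CPM in them. Alb, Apoa1, Ttr and Ahsg of this list are also on the list of negative acute phase genes described below. The sum therefore does not measure the amount of hepatocytes alone. Per 1000 CPM of the summed hepatocyte markers, Itih3 was at 3.41 to 5.82 CPM in WT NASH and 3.66 to 8.01 CPM in WT control livers. Fgg was at 17.3 to 22.7 and 21.6 to 24.6 CPM, so both genes overlapped on that scale, while Lcn2, Orm2 and Hp did not. Markers of recruited monocytes were higher for 5 of 8, and those of neutrophils lower for 2 of 6. The part of these cells in the results was not tested.

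In male KI livers the NASH diet moved 0 of 10 genes past the threshold. The share over all genes was 0%. An unadjusted p under 0.05 was reached by 0 of the 10, beside 847 of the 12988 genes tested. DESeq2 gave a p-value for 9 of the 10 and called 0, beside 44 over all genes. The median log2 fold change was 0.12 over the 10 genes and 0.01 over all genes. Saa1 was at 928, 771, 835 and 82.1 CPM in KI NASH and at 2384, 74.6, 57.8 and 69.4 CPM in KI control livers. In each group 1 library went against the rest, replicate 4 on the NASH diet and replicate 1 on the control diet. The log2 fold changes of 0.02 for Saa1 and -0.42 for Saa2 rest on KI control 1: without it they were 3.28 and 4.19, with neither past the threshold (lowest adjusted p in such fits 0.36 and 0.41). Lcn2 followed the same libraries, with 100, 296, 43.1 and 6.03 CPM in KI NASH and 98.8, 7.20, 4.65 and 15.2 CPM in KI control livers, a log2 fold change of 1.82 (SE 1.08, adjusted p = 0.88). Orm2 was at 50.03, 90.4, 105 and 17.9 CPM in KI NASH and 65.6, 21.7, 15.4 and 21.1 CPM in KI control livers (log2 fold change 1.09, SE 0.52, adjusted p = 0.77). For Fgg and Itih3 the KI NASH range of 3763 to 5851 and 1042 to 1528 CPM lay beside 3516 to 6308 and 1007 to 1431 CPM in KI control livers.

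**Figure D2:**
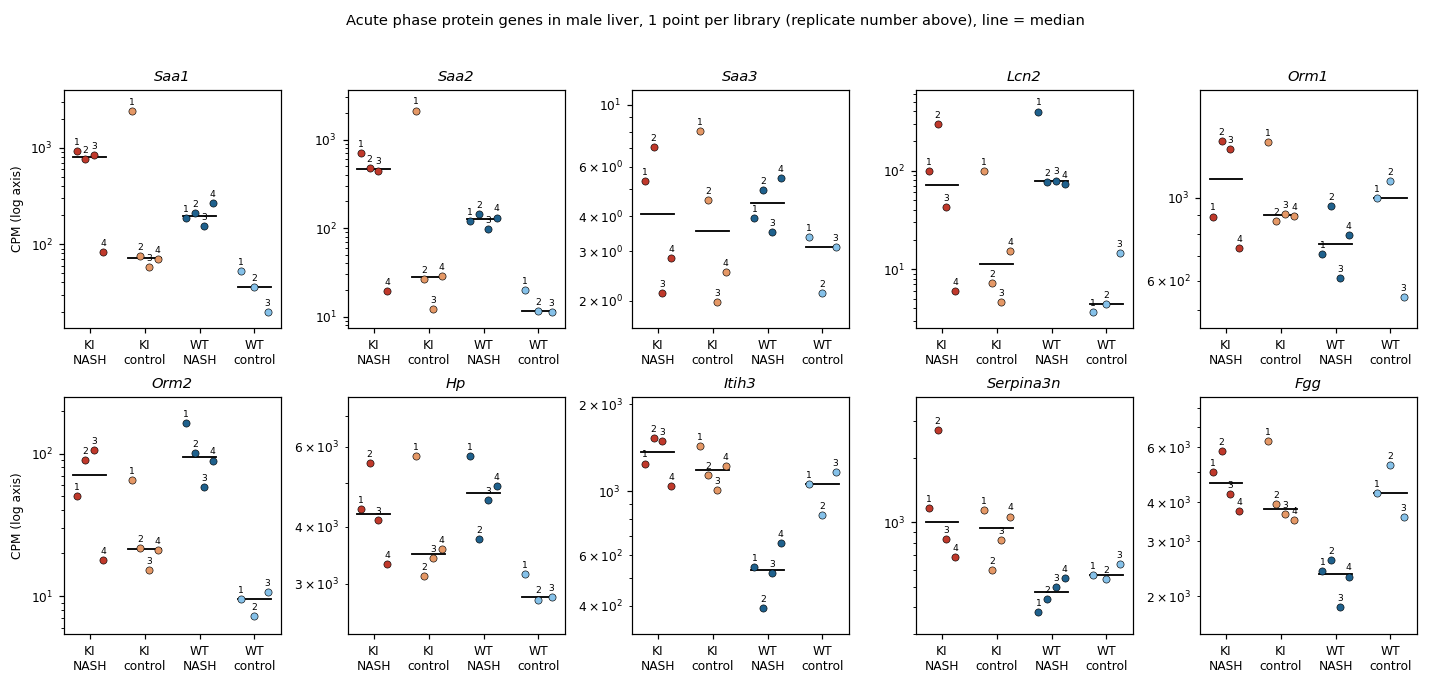
CPM on a log axis of the 10 genes in each male liver library, by group (KI NASH, KI control, WT NASH, WT control), with 1 point a library and a line at the group median. KI control 1 is the highest point of its group in all 10 panels, and Itih3 and Fgg are lower in the 4 WT NASH livers than in the KI NASH livers.

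On the NASH diet, male KI livers had more Itih3, Serpina3n and Fgg mRNA than WT livers. These were 3 of 10 genes, where 37% of all genes tested passed and 19.6% were higher, so the share of the 10 was near that of all genes. The median log2 fold change was 0.78 over the 10 genes and -0.02 over all genes. Itih3 was at 1248, 1528, 1496 and 1042 CPM in KI NASH and 545, 393, 520 and 659 CPM in WT NASH livers, a log2 fold change of 1.33 (SE 0.18, adjusted p = 0.00020). Serpina3n was at 1170, 2702, 831 and 689 CPM in KI NASH and 379, 439, 499.6 and 550.5 CPM in WT NASH livers, a log2 fold change of 1.53 (SE 0.35, adjusted p = 0.0043). Fgg was at 5007, 5851, 4246 and 3763 CPM in KI NASH and 2405, 2613, 1849 and 2315 CPM in WT NASH livers, a log2 fold change of 1.04 (SE 0.21, adjusted p = 0.0024). For each of these the lowest KI value was above the highest WT value, and all 15 fits that left out 1 library kept the call. The log2 fold change of Serpina3n was 0.94 without KI NASH 2, its highest library. Saa1, at 928, 771, 835 and 82.1 CPM in KI NASH and 188, 208, 153 and 265 CPM in WT NASH livers, was higher in 3 KI livers and lower in the fourth (log2 fold change 1.68, SE 1.04, adjusted p = 0.22). Without KI control 1, which enters the shared spread, its adjusted p was 0.024. Orm2 and Orm1 had log2 fold changes of -0.65 (adjusted p = 0.33) and 0.52 (adjusted p = 0.13). Hepatocyte markers were higher for 4 and lower for 1 of 17, with sums of 117900 to 159800 CPM in KI NASH and 107100 to 115200 CPM in WT NASH livers. Neutrophil markers were higher for 3 of 6 and recruited monocyte markers lower for 5 of 8.

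On the control diet, 0 of 10 genes differed between male KI and WT livers past the threshold, against 4.67% of all genes. An unadjusted p under 0.05 was reached by 3 of the 10 (Saa1, Saa2 and Orm2), beside 3013 of the 12988 genes tested. DESeq2 gave a p-value for 9 of the 10 and called 2, beside 1323 over all genes. Without the averaged WT control library edgeR also called 0. Saa1 was at 2384, 74.6, 57.8 and 69.4 CPM in KI control and 53.1, 35.9 and 19.8 CPM in WT control livers. Its log2 fold change of 4.16 (adjusted p = 0.077) was 0.89 without KI control 1, and that of Saa2 was 5.28 (adjusted p = 0.085) and 0.68 without it. Orm2 was at 65.6, 21.7, 15.4 and 21.1 CPM in KI control and 9.62, 7.28 and 10.6 CPM in WT control livers, with no overlap (log2 fold change 1.75, SE 0.60, adjusted p = 0.099). The difference between the genotypes in their response to the diet, tested as an interaction, was past the threshold for 0 of 10 genes, against 1.13% of all genes. It had an unadjusted p under 0.05 for 3 of the 10 genes, beside 2602 of the 12988 genes tested. DESeq2 called 2 of the 9 genes to which it gave a p-value, beside 719 over all genes. The interaction was 1.09 (SE 0.26, adjusted p = 0.065) for Itih3, 1.05 (SE 0.31, adjusted p = 0.11) for Fgg and -2.40 (SE 0.78, adjusted p = 0.13) for Orm2 on the log2 scale. Without WT NASH 4 the interaction of Itih3 had an adjusted p of 0.036.

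In female liver the genotypes differed on the control diet. All 10 genes had a positive log2 fold change of KI over WT, with a median of 0.96 against 0.01 over all genes, and Lcn2 and Serpina3n, 2 of 10, passed where 7.57% of the 13315 genes tested did (4.04% higher). Lcn2 was at 419, 92.8, 43.7 and 182 CPM in KI control and 4.62, 8.09, 12.6 and 18.4 CPM in WT control livers, a log2 fold change of 4.07 (SE 0.98, adjusted p = 0.023). Serpina3n was at 2388, 1546, 1381 and 1271 CPM in KI control and 349, 464, 479 and 419 CPM in WT control livers, a log2 fold change of 1.95 (SE 0.42, adjusted p = 0.016). Every KI value was above every WT value for both. Without WT control 1 neither passed, with adjusted p of 0.069 for Lcn2 and 0.051 for Serpina3n, and Lcn2 also did not pass without WT control 2 (0.054) or 3 (0.062). Fgg was at 7636, 5988, 6009 and 4965 CPM in KI control and 3653, 3608, 3320 and 3483 CPM in WT control livers, also without overlap, at a log2 fold change of 0.81 (SE 0.24, adjusted p = 0.057). Saa3, at 7.40, 3.85, 4.42 and 3.82 CPM in KI control and 2.43, 1.81, 2.10 and 2.62 CPM in WT control livers, and Hp did not overlap either, with adjusted p of 0.088 and 0.26. Saa1 was at 1293, 224, 44.99 and 161 CPM in KI control and 23.5, 17.8, 84.6 and 43.0 CPM in WT control livers (log2 fold change 3.35, SE 1.149, adjusted p = 0.085). KI control 3 fell inside the WT range and KI control 1 stood far above it. Neutrophil markers moved in the same direction, with 3 of 6 higher and sums of 8.35 to 48.0 CPM in KI control and 1.77 to 9.19 CPM in WT control livers. Their part in the Lcn2 difference was not tested. Hepatocyte marker sums were 135900 to 187500 CPM in KI control and 142400 to 164600 CPM in WT control livers.

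**Figure D3:**
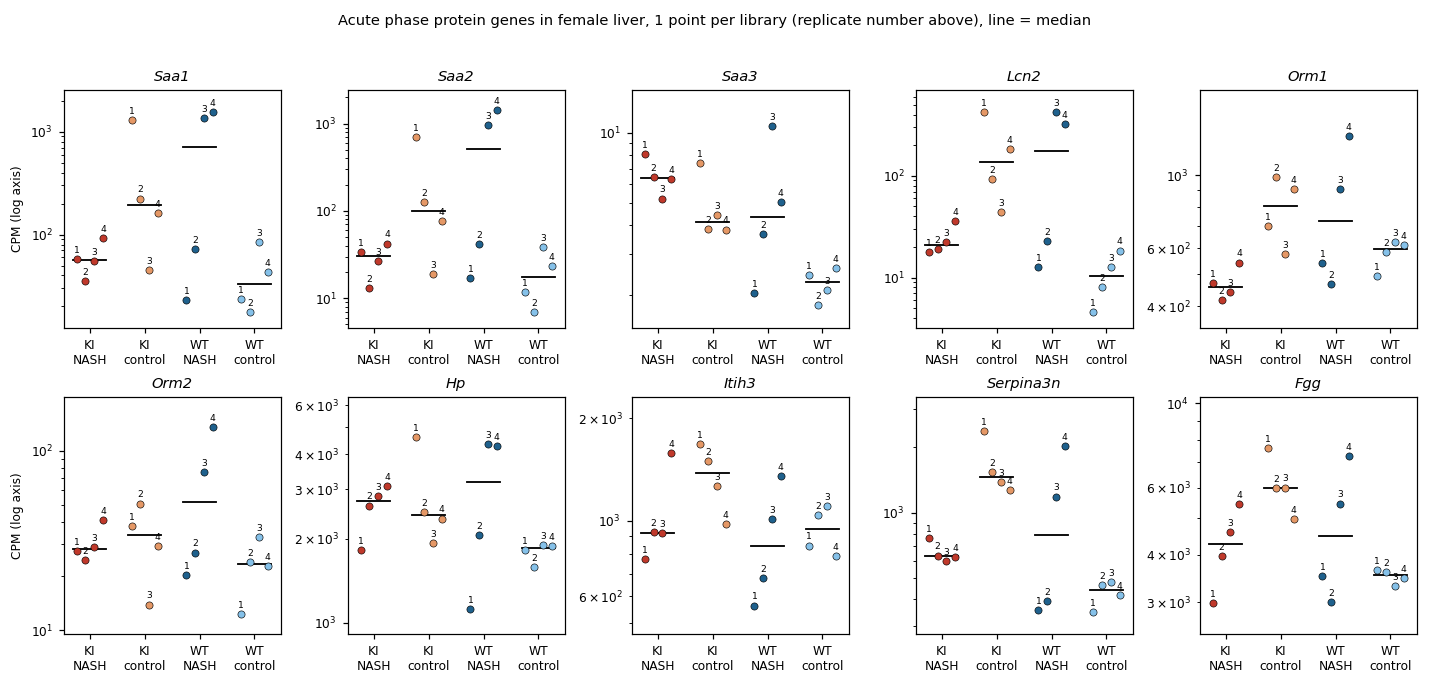
CPM on a log axis of the 10 genes in each female liver library, by group (KI NASH, KI control, WT NASH, WT control), with 1 point a library and a line at the group median. The 4 KI control livers lie above the 4 WT control livers for Saa3, Lcn2, Hp, Serpina3n and Fgg, and the WT NASH livers of Saa1, Saa2 and Lcn2 split into 2 high and 2 low points.

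Female WT livers did not respond to the NASH diet as one group. Saa1 was at 23.2, 71.6, 1349 and 1552 CPM in WT NASH and 23.5, 17.8, 84.6 and 43.0 CPM in WT control livers. Lcn2 was at 12.6, 22.8, 424 and 324 CPM in WT NASH and 4.62, 8.09, 12.6 and 18.4 CPM in WT control livers. Serpina3n was at 357, 393, 1187 and 2032 CPM in WT NASH and 349, 464, 479 and 419 CPM in WT control livers. WT NASH 3 and 4 were high for all of these, and WT NASH 1 and 2 were within or close to the control range. All 10 genes overlapped between the groups, and 0 of 10 passed, against 0.0526% of all genes. Unadjusted p values under 0.05 were found for 6 genes, beside 1829 of the 13315 genes tested, and DESeq2 called 4, beside 327 over all genes. The log2 fold changes were 4.15 for Saa1, 4.92 for Saa2 and 4.16 for Lcn2, with adjusted p of 0.15, 0.13 and 0.11, and the median over the 10 genes was 1.24. Without WT NASH 1, Saa2, Saa3 and Lcn2 passed, with adjusted p of 0.048, 0.047 and 0.028.

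In female KI livers, levels on the NASH diet were lower than on the control diet for several genes, none past the threshold (0 of 10, against 8.83% of all genes). An unadjusted p under 0.05 was reached by 6, beside 3499 of the 13315 genes tested, and DESeq2 called 3, beside 1800 over all genes. Lcn2 was at 17.8, 19.2, 22.4 and 36.2 CPM in KI NASH and 419, 92.8, 43.7 and 182 CPM in KI control livers (log2 fold change -2.95, SE 0.93, adjusted p = 0.059). Serpina3n was at 762.5, 635, 599 and 628 CPM in KI NASH and 2388, 1546, 1381 and 1271 CPM in KI control livers (log2 fold change -1.33, SE 0.42, adjusted p = 0.058). Orm1 was at 471.5, 419, 442 and 543 CPM in KI NASH and 699, 989, 576 and 909 CPM in KI control livers (log2 fold change -0.76, SE 0.26, adjusted p = 0.081). The groups of these 3 genes did not overlap, and how many of all genes tested did the same was not counted. The spread is shared with the WT groups, and without WT NASH 2 all 3 passed, with adjusted p of 0.039, 0.035 and 0.049. Saa1 was at 58.2, 35.5, 55.6 and 92.7 CPM in KI NASH and 1293, 224, 44.99 and 161 CPM in KI control livers, and its log2 fold change of -2.83 was -1.24 without KI control 1. Neutrophil markers moved in the same direction: 6 of 6 had negative log2 fold changes with a median of -1.88, of which Retnlg passed, and their sums were 4.83 to 10.3 CPM in KI NASH and 8.35 to 48.0 CPM in KI control livers. Hepatocyte markers were lower for 2 of 17. The part of these cells in the Lcn2 difference was not tested.

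On the NASH diet the female genotypes overlapped for every gene, and for Saa2 the 2 high WT livers stood above all KI livers. Saa2 was at 33.7, 13.1, 26.9 and 42.3 CPM in KI NASH and 16.8, 41.8, 973 and 1419 CPM in WT NASH livers, a log2 fold change of -4.40 (SE 1.27, adjusted p = 0.22). 0 of 10 genes passed, against 0.0901% of all genes. Unadjusted p values under 0.05 were found for 5, beside 1728 of the 13315 genes tested, and DESeq2 called 1, beside 158 over all genes. The median log2 fold change over the 10 genes was -0.69.

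The interaction in female liver passed for 4 of 10 genes, against 4.77% of all genes (2.67% lower), and all 10 were negative with a median of -1.42 against -0.01 over all genes. It was -6.98 (SE 1.63, adjusted p = 0.026) for Saa1, -7.90 (SE 1.76, adjusted p = 0.023) for Saa2, -7.11 (SE 1.35, adjusted p = 0.014) for Lcn2 and -2.54 (SE 0.59, adjusted p = 0.025) for Serpina3n on the log2 scale. A negative value means that the diet difference was lower in KI than in WT livers. For Lcn2 that difference was -2.95 in KI and 4.16 in WT livers, and for Serpina3n it was -1.33 in KI and 1.21 in WT livers. Lcn2 kept its call in all 16 fits that left out 1 library, and it was the only 1 of the 4 to do so: without KI NASH 3 or without WT control 1, Saa1, Saa2 and Serpina3n did not pass, with adjusted p of 0.051 to 0.060. Saa1 also missed it without KI NASH 2, WT control 4, WT NASH 3 or WT NASH 4, and Serpina3n without KI NASH 2 or KI NASH 4. The values of the 5 comparisons within a sex rest on the same 4 groups and are not independent of each other. Males and females were fitted separately, and a difference between the sexes was not tested.

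**Figure D4:**
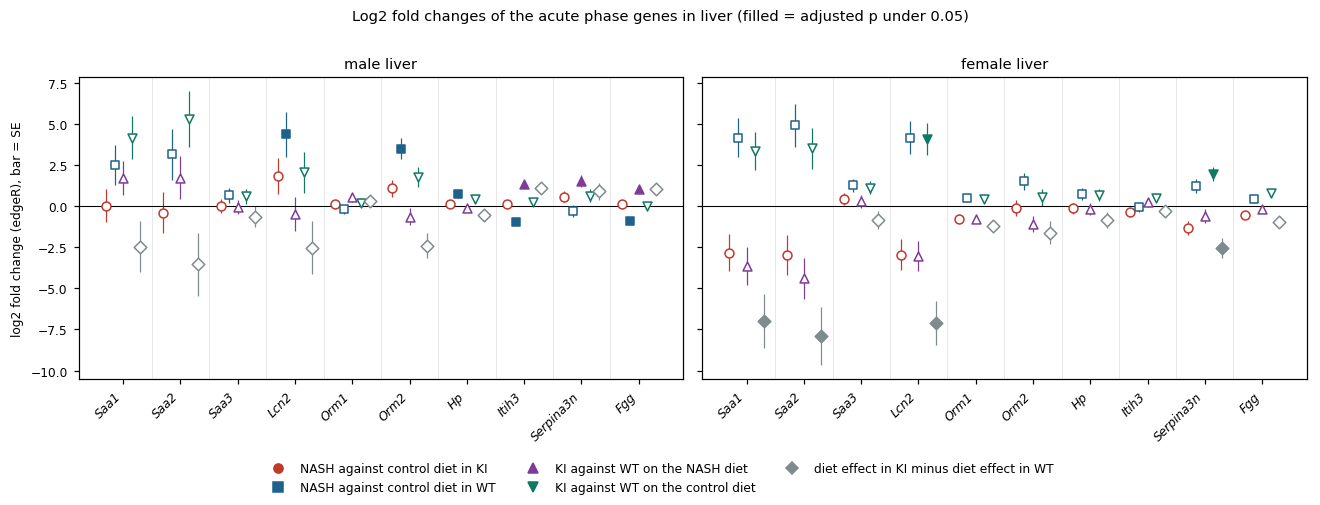
Log2 fold changes and interactions (axis, log2 units, bars of 1 SE) of the 10 genes in male and female liver for each comparison, with filled points past an adjusted p of 0.05. In female liver the interactions of Saa1, Saa2 and Lcn2 lie at -6.98, -7.90 and -7.11.

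Other genes of the acute phase response were taken from lists of positive and negative acute phase proteins, receptors and signal transducers, and inducing cytokines. In male WT livers on the NASH diet, 3 of 30 other positive acute phase genes were higher and 9 lower, beside 11.3% and 9.74% of all genes. The 12 calls numbered 2 without WT control 2, 5 without WT control 1 or WT NASH 3 and 7 without WT NASH 2. Orm3, an orosomucoid gene like Orm1 and Orm2, had a log2 fold change of 3.34, and Il1rn, the interleukin 1 receptor antagonist, of 2.05. Fgb, the beta chain of fibrinogen, fell by 0.94 and Serpinf2, the plasmin inhibitor alpha-2-antiplasmin, by 0.82 on the log2 scale. Fgb thus moved with Fgg, its partner in the same protein. Of 12 negative acute phase genes, whose plasma proteins fall in inflammation, 1 was higher and 5 lower, among them Apom, which fell by 1.5, and Ahsg (fetuin A), which fell by 1.14. Lifr, the receptor of leukaemia inhibitory factor, fell by 2.15 and Il1r1, the interleukin 1 receptor, by 1.44, among 5 lower and 1 higher of 28 receptors and transducers. Of 6 cytokines with enough counts to test, 3 rose (Tgfb1, Clcf1 and Tnf). Il6 was at 0 to 0.190 CPM in the livers, too low to test.

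Between male KI and WT livers on the NASH diet, 15 of the 30 other positive acute phase genes were higher and 3 lower, beside 19.6% and 17.4% of all genes. Fgb had a log2 fold change of 1.22 and Fga, the fibrinogen alpha chain, of 1.2, beside the 1.04 of Fgg, so all 3 fibrinogen chain genes were higher in KI NASH livers. Itih4, of the same inhibitor family as Itih3, had a log2 fold change of 1.16, and Il1rn fell by 2.32. Receptors and transducers were higher for 12 and lower for 1 of 28, among them the glucocorticoid receptor gene Nr3c1 (0.80), Hnf4a, a hepatocyte transcription factor (0.85), and Lifr (1.67). Of the 6 cytokines tested, 0 were higher and 4 lower: Tgfb1 (-0.82), Clcf1 (-2.42), Tnf (-2.25) and Il33 (-0.82). In male KI livers no gene of these 4 lists passed between the diets.

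In female livers on the control diet, 6 of 30 other positive acute phase genes were higher in KI and 1 lower, beside 4.04% and 3.53% of all genes. The 7 calls numbered 3 without WT control 3 or 4 and 4 without WT control 1. The metallothionein genes Mt1 and Mt2, whose products bind zinc, had log2 fold changes of 3.82 and 4.83. Serpina3c, a relative of Serpina3n, was at 41.95 to 157 CPM in KI control and at most 0.0932 CPM in WT control livers. Il1r1 rose by 2.09, while Cebpa, a C/EBP factor, and Cish, an inhibitor of cytokine signalling, fell by 1.01 and 2.22. The interaction was lower for 5 of the 30, beside 2.67% of all genes, with Mt1 at -5.37, Mt2 at -7.08 and Orm3 at -4.85, and it was -3.30 for Il1r1 and -3.11 for Cebpd. In female WT livers no gene of the 4 lists passed between the diets.

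Outside all the gene lists used here, the genes whose log2 CPM followed the mean of the 10 most closely were found as a description over libraries that share groups. Over the 15 male livers they were Lrg1 (Pearson r 0.925, Spearman rho 0.843), Litaf (0.878 and 0.839), Ptpn1 (0.843 and 0.596), Prtn3 (0.838 and 0.850) and Mppe1 (0.825 and 0.675). Over the 16 female livers they were Litaf (0.929 and 0.924), Ptpn1 (0.923 and 0.9), Lrg1 (0.914 and 0.882), Cxcl1 (0.913 and 0.835) and Ddx28 (0.912 and 0.894). Lrg1, Litaf and Ptpn1 were among the 5 in both sexes.

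In the sorted macrophages the same genes were detected at far lower levels, and in males they differed with the diet in KI mice. The low-count filter removed Saa3 and Orm2 in males, and Saa2, Saa3, Lcn2 and Orm2 in females. All 8 genes tested rose on the NASH diet in male KI macrophages, where 24% of the 13036 genes tested passed (15.1% higher), with a median log2 fold change of 3.71. Hp was at 58.1, 35.1, 60.7, 127 and 18.2 CPM in KI NASH and 2.69, 8.64, 5.23 and 5.83 CPM in KI control macrophages (log2 fold change 3.42, SE 0.56, adjusted p = 0.0011). Serpina3n was at 9.85, 6.94, 20.5, 41.4 and 8.22 CPM in KI NASH and 0.859, 1.41, 1.01 and 1.07 CPM in KI control macrophages (log2 fold change 3.99, SE 0.63, adjusted p = 0.00093). Fgg was at 34.3, 19.4, 52.1, 146 and 28.8 CPM in KI NASH and 9.97, 12.5, 9.31 and 10.1 CPM in KI control macrophages (log2 fold change 2.42, SE 0.60, adjusted p = 0.0082). For Hp, Serpina3n and Fgg the lowest KI NASH library was above the highest KI control library. Saa1 was at 12.6, 1.71, 3.68, 6.06 and 0.522 CPM in KI NASH and at 0.115, 0, 0.138 and 0 CPM in KI control macrophages. Without the low-count filter all 10 genes were tested and 10 passed, with adjusted p of 0.0041 for Orm2 and 0.037 for Saa3. Orm2 was then at 1.13, 0.665, 0.263, 0.853 and 0.131 CPM in KI NASH and 0.0573, 0, 0 and 0 CPM in KI control macrophages, so these calls rest on few counts. The genes that the filter removed passed in none of the other macrophage comparisons.

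Hepatocyte markers rose with them in male KI macrophages: 16 of 17 tested were higher, with a median log2 fold change of 3.07. The summed markers were at 635 to 3791 CPM in KI NASH and 227 to 329 CPM in KI control macrophages, against 117900 to 159800 CPM in KI NASH livers. Per 1000 CPM of hepatocyte markers, Fgg was at 30.6 to 42.0 CPM in KI NASH and 37.5 to 44.6 CPM in KI control macrophages, and at 17.3 to 57.2 CPM over all livers. On this scale the Fgg groups overlapped. The markers include Alb, Apoa1, Ttr and Ahsg, which are also on the list of negative acute phase genes, so the scale is not independent of the acute phase response. Serpina3n was at 10.8 to 16.3 CPM in KI NASH and 3.24 to 4.72 CPM in KI control macrophages per 1000 CPM of the markers, and Hp at 26.5 to 63.8 and 10.1 to 26.3 CPM. These groups did not overlap on that scale. In male livers Serpina3n was at 5.85 to 19.7 CPM in KI NASH and 4.61 to 7.46 CPM in KI control per 1000 CPM of the markers, and Hp at 27.4 to 40.3 CPM in KI NASH and 24.0 to 37.3 CPM in KI control, so the KI NASH macrophage ranges overlapped those of KI NASH livers for both genes. The part of hepatocyte RNA in the macrophage differences was not tested further.

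**Figure D5:**
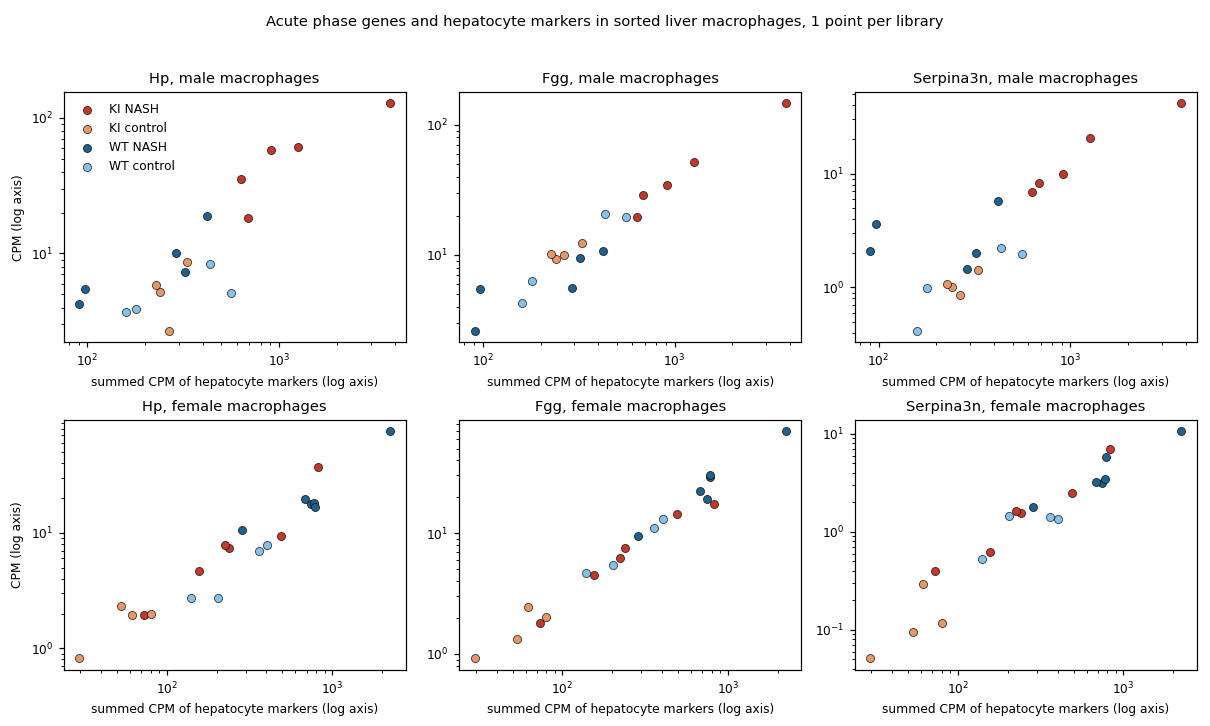
Level of Hp, Fgg and Serpina3n (vertical axis, CPM, log scale) in each macrophage library against the summed hepatocyte markers (horizontal axis, CPM, log scale), by group and sex. The male KI NASH libraries lie at 635 to 3791 CPM of hepatocyte markers, above the 4 KI control libraries at 227 to 329 CPM.

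Between male KI and WT macrophages on the NASH diet, 7 of 8 genes were higher, against 3.13% of all genes (2.62% higher), with a median log2 fold change of 2.81. Hp was at 58.1, 35.1, 60.7, 127 and 18.2 CPM in KI NASH and 10.1, 4.26, 7.29, 18.7 and 5.45 CPM in WT NASH macrophages (log2 fold change 2.70, adjusted p = 0.018). The calls for all 7 were lost without WT NASH 1 (adjusted p for Hp 0.060) and without WT NASH 5 (0.063). Those for Saa2 and Serpina3n were also lost without WT NASH 2, that for Saa2 without WT NASH 3 and that for Serpina3n without KI NASH 4. Over all genes, the fits that left out 1 library gave 0 to 975 calls in place of 408. Hepatocyte markers were higher for 16 of 17 here too, with 635 to 3791 CPM in KI NASH and 90.7 to 421 CPM in WT NASH macrophages. Per 1000 CPM of these markers, Hp was at 26.5 to 63.8 CPM in KI NASH and 22.6 to 56.3 CPM in WT NASH macrophages. Serpina3n was at 10.8 to 16.3 and 5.0 to 37.4 CPM, and Fgg at 30.6 to 42.0 and 19.1 to 56.7 CPM. On this scale the genotypes overlapped for each of these genes, and for Itih3 and Orm1 as well. The part of hepatocyte RNA in this difference was not tested. In WT males 0 of 8 genes passed between the diets, against 8.19% of all genes. There 1 had an unadjusted p under 0.05, beside 3291 of the 13036 genes tested, and DESeq2 called 0, beside 1730 over all genes. Without WT control 4, whose sex-linked genes went against its label, 0 passed as well. Between KI and WT control macrophages of males 0 of 8 passed, against 0% of all genes. There 0 reached an unadjusted p under 0.05, beside 862 of the 13036 genes tested, and DESeq2 called 0, beside 5 over all genes. The interaction passed for 0 of 8 genes, against 0% of all genes. It had an unadjusted p under 0.05 for 6, beside 1595 of the 13036 genes tested, and DESeq2 called 6, beside 250 over all genes.

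In female macrophages the NASH diet raised 4 of 6 genes in WT mice, against 12.9% of all genes (8.44% higher), and 2 of 6 in KI mice, against 2.31% (1.79% higher). Hp ranged over 10.6 to 76.3 CPM in WT NASH and 2.71 to 7.91 CPM in WT control macrophages (log2 fold change 2.38, SE 0.70, adjusted p = 0.034). Fgg ranged over 9.41 to 69.7 CPM in WT NASH and 4.66 to 13.1 CPM in WT control macrophages (log2 fold change 1.81, SE 0.56, adjusted p = 0.040), and WT NASH 3 was the highest for both. All 4 calls in WT (Saa1, Orm1, Hp and Fgg) were lost without WT NASH 3, where the log2 fold change was 1.7 for Hp and 1.36 for Fgg, and without any 1 of WT control 2, 3 or 4. Those for Orm1, Hp and Fgg were also lost without WT control 1, and that for Fgg without WT NASH 2, 4 or 5. In KI macrophages Serpina3n was at 0.397 to 6.95 CPM on the NASH diet and 0.0511 to 0.295 CPM on the control diet, and it rose by 3.93 on the log2 scale (SE 0.83, adjusted p = 0.024). Itih3, the other gene that passed in KI, rose by 2.46 (SE 0.60, adjusted p = 0.039). Without KI control 1, 2 or 3 neither passed, and Itih3 was lost in 9 of 20 such fits. Hepatocyte markers were higher for 11 of 17 in each genotype, with sums of 285 to 2240 CPM in WT NASH and 139 to 406 CPM in WT control macrophages. Per 1000 CPM of these markers, Fgg was at 25.3 to 38.5 CPM in WT NASH and 26.5 to 33.5 CPM in WT control macrophages, which overlapped. Hp was at 21.5 to 37.2 and 13.5 to 19.5 CPM, which did not overlap. On this scale the diet groups overlapped for Saa1 and Orm1 in WT and for Serpina3n and Itih3 in KI. Fgg was lower in KI control than in WT control macrophages, at 0.919 to 2.45 against 4.66 to 13.1 CPM (log2 fold change -2.33, SE 0.65, adjusted p = 0.046), the 1 of 6 that passed against 4.64% of all genes (1.91% lower). That call was lost in 13 of the 20 fits that left out 1 library, with an adjusted p of up to 0.13. Hepatocyte markers were lower for 6 of 17 in that comparison, with sums of 29.6 to 80.1 CPM in KI control and 139 to 406 CPM in WT control macrophages. Per 1000 CPM of the markers, Fgg was at 24.9 to 39.7 CPM in KI control and 26.5 to 33.5 CPM in WT control macrophages, so these groups overlapped. The part of hepatocyte RNA in the female macrophage differences was not tested further. On the NASH diet 0 of 6 passed between the genotypes, against 0.561% of all genes, and 1 was called by DESeq2. An unadjusted p under 0.05 was found for 5, beside 2377 of the 12838 genes tested. The interaction passed for 0 of 6, against 0.288%, and 0 were called by DESeq2. It had an unadjusted p under 0.05 for 0, beside 1178 of the 12838 genes tested.

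The inducing cytokines were measured in the same sorted cells. Osm, the gene of oncostatin M, a cytokine of the interleukin 6 family, rose with the NASH diet in all 4 sets, by 3.72 in male KI, 3.89 in male WT, 2.15 in female KI and 4.62 in female WT macrophages on the log2 scale. Tnf rose by 2.56 in male KI and by 1.78 in female WT macrophages. Of 10 cytokine genes tested in male KI macrophages 6 were higher and 0 lower, beside 15.1% and 8.94% of all genes.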

How the data were processed

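RNA was read by TruSeq Stranded mRNA libraries, per the labels' protocols. The deposited tables hold raw counts per gene, which the authors made from reads on the mm10 genome build, per the submitters' processing notes. Which aligner and counter were used, and with which strand setting, is not given in the sources used here. The 10 genes and all lists were chosen with earlier results of these data known.

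Each sex and tissue was fitted alone, with 1 mean per group. Genes were kept by filterByExpr (min.count 10, min.total.count 15), scaled by TMM and tested with edgeR 4.0.16 (glmQLFit, glmQLFTest) in R 4.3.3, with Benjamini-Hochberg adjustment over all genes tested and a threshold of 0.05. Standard errors are the log2 fold change divided by the square root of F. CPM are TMM-scaled. The duplicated WT control library entered as the rounded mean of its 2 versions. DESeq2 1.42.0, RLE scaling, no low-count filter, each version of that library, a replicate block and leaving out each library were tried as alternatives. Scripts were tested on simulated data. Replicate numbers were not taken to pair the samples, and whether some same-numbered libraries belong together is not known. Named genes are all 10 members, up to 4 of each list past the threshold by smallest p in a comparison, and the 5 genes outside the lists closest to the members' mean in each liver table. Promoters came from RefSeq on GRCm38.p6.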

Additional observations from a re-analysis of the deposited data

Results flagged for a closer look

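Among 112 groups of 4 to 10 libraries with a median count of at least 10, 21 held a library that stood apart by Dixon's test at the 95% level. That level flags about 1 in 20 groups by chance only where values are normally distributed and groups independent. Here the test was run on CPM without logs, and the 10 genes share the same libraries. The number to be expected by chance is therefore not known. In male liver, KI control 1 was the high library for Saa1 (2384 CPM), Saa2 (2127 CPM), Lcn2 (98.8 CPM), Orm1 (1409 CPM), Orm2 (65.6 CPM) and Fgg (6308 CPM), and WT NASH 1 for Lcn2 (397 CPM). In female liver, KI control 1 was the high library for Saa1 (1293 CPM), Saa2 (696 CPM) and Saa3 (7.40 CPM). In male macrophages, KI NASH 1 was high for Saa2 (8.88 CPM), KI NASH 4 for Fgg (146 CPM) and WT NASH 4 for Itih3 (4.07 CPM). In female macrophages, WT NASH 3 was high for Saa1 (4.85 CPM), Orm1 (10.1 CPM), Hp (76.3 CPM), Itih3 (14.5 CPM) and Fgg (69.7 CPM), KI NASH 5 was high for Hp (37.0 CPM) and Serpina3n (6.95 CPM), and WT control 3 was low for Serpina3n (0.532 CPM).

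The response to the NASH diet differed between female KI and WT livers by the interaction test for Saa1 (-6.98), Saa2 (-7.90), Lcn2 (-7.11) and Serpina3n (-2.54), all on the log2 scale.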

How the results depend on the processing

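Values below are the numbers of the 10 genes past the threshold. In the main fits 8 of them were tested in male and 6 in female macrophages. DESeq2 gave a p-value for 9 of the 10 in male liver. In place of edgeR it gave 2 there for KI against WT on the control diet and 2 for the interaction (0 and 0 with edgeR). Over all genes these were 1323 and 719 (606 and 147 with edgeR). In female liver DESeq2 gave 3 for the diet in KI, 4 for the diet in WT, 1 for KI against WT on the NASH diet and 6 on the control diet (0, 0, 0 and 2 with edgeR). Over all genes these were 1800, 327, 158 and 1630 (1176, 7, 12 and 1008 with edgeR). DESeq2 gave 6 for the male macrophage interaction (0), beside 250 over all genes (0). In female macrophages it gave 5 for the diet in KI, 1 for the genotypes on the NASH diet and 3 on the control diet (2, 0 and 1). Taking version 4 of the duplicated WT control library gave 1 for the male liver interaction. Without the low-count filter the female macrophage genotype comparison on the control diet gave 0. RLE scaling moved none of these counts past 1.5 times. The cause was not tested for any of these. With the replicate number as a block, female macrophages gave 0 for the diet in KI, 0 for the diet in WT and 0 for the genotypes on the control diet. The block also ended the calls of Lcn2 for the diet in male WT livers (adjusted p = 0.052), Serpina3n for the female liver interaction (0.052) and Saa2 for KI against WT on the NASH diet in male macrophages (0.081), and it gave 1.25 in place of -0.42 for Saa2 between the diets in male KI livers. Correlations of same-numbered libraries' deviations ran from -0.135 to 0.232 (male livers), -0.181 to 0.129 (female livers), -0.22 to 0.556 (male macrophages) and -0.363 to 0.515 (female macrophages). Differently numbered libraries ran over -0.291 to 0.241 in male livers, -0.245 to 0.246 in female livers, -0.452 to 0.554 in male and -0.486 to 0.547 in female macrophages. Not every pair was over 0.1 in any set, so the numbers were not taken to pair the samples. This rule cannot tell whether only some same-numbered libraries were paired.

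Leaving out 1 library gave 0 to 0 (diet in KI), 2 to 7 (diet in WT), 3 to 4 (genotypes, NASH), 0 to 0 (genotypes, control) and 0 to 1 (interaction) in male liver. In the same order it gave 0 to 3, 0 to 3, 0 to 0, 0 to 5 and 1 to 6 in female liver, 6 to 9, 0 to 0, 0 to 8, 0 to 0 and 0 to 0 in male macrophages, and 0 to 5, 0 to 6, 0 to 2, 0 to 3 and 0 to 0 in female macrophages. Over all genes, in that order, male liver gave 0 to 1, 1123 to 3376, 3799 to 5252, 107 to 835 and 18 to 626. Female liver gave 466 to 1392, 0 to 117, 5 to 29, 393 to 1179 and 254 to 1198. Male macrophages gave 2224 to 3991, 83 to 1412, 0 to 975, 0 to 1 and 0 to 1. Female macrophages gave 4 to 688, 768 to 1827, 0 to 662, 261 to 919 and 5 to 55. On the log2 scale, the male liver interaction was 0.79 for Saa1 and 1.06 for Saa2 without KI control 1 (lowest -2.87 and -3.96), the diet difference of Serpina3n in male KI livers was -0.0244 without KI NASH 2, its genotype difference in female NASH livers was 0.0242 without WT NASH 4 (lowest -0.88), and that of Saa2 in male control macrophages was 0.56 without WT control 2 (lowest -3.15). The diet difference in male KI livers was 4.19 for Saa2 and 3.28 for Saa1 without KI control 1, against -0.42 and 0.02 with it. The counts of the 4 context lists were less stable: of 1740 recomputed counts, 414 moved by over 1.5 times. The 18 calls of other positive acute phase genes between male KI and WT livers on the NASH diet stayed at 13 to 19, and the 13 of receptors and transducers at 11 to 14.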
